A study of Homo sapiens with 4 samples.

Results

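The mitochondrial ribosomal proteins are the protein subunits of the ribosome that works inside mitochondria. Their genes were taken from the array platform's annotation as the symbols that start with MRPL or MRPS followed by a digit, protein-coding genes only. This gave 76 genes with 110 probes, of 20046 named genes and 47320 probes in all. Of these genes, 50 encode subunits of the large ribosomal subunit and 26 of the small one. A further 4 matching symbols, the antisense RNAs MRPL23-AS1 and MRPL20-AS1 and the pseudogenes MRPL42P5 and MRPS31P5, were left out. RNA was measured on single-colour Illumina bead arrays in 22Rv1 cells, an established human prostate carcinoma line. Cells had received WCE, a herbal extract, at 10 µg/mL (2 arrays) or vehicle (2 arrays), each for 16 h. WCE is not described further in the labels, and both groups are the same single line grown without any stated genetic change.

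Mitochondria carry a small genome of their own, which encodes core subunits of the respiratory chain. The messages it makes are translated by a dedicated ribosome whose RNAs come from mitochondrial DNA and whose proteins are all encoded in the nucleus, made in the cytosol and imported. Part of these proteins have counterparts in bacterial ribosomes and part are found in mitochondria alone. Together with the ribosomal RNA they assemble into the 2 subunits.

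Between 45.2% and 48.9% of all probes were detected on each array, at a detection p-value below 0.05, and median raw signals ran from 81.7 to 85.1. The WCE arrays correlated across all probes at r = 0.992 and the vehicle arrays at r = 0.994 (normalised log2 signals). Of 10 prostate luminal markers, 8 had a probe and 7 of these were detected on all 4 arrays, among them HOXB13, KLK2 and KRT18. KLK3, which encodes prostate-specific antigen, was detected on none. Of 7 fibroblast and blood cell markers, COL1A2, COL3A1, PTPRC and CD3E were detected on no array, DCN was detected on 3 arrays, and LUM and CD14 on all 4. Nothing in the labels says that a group's arrays hold RNA of different cultures. Each p-value here is therefore set against the spread among 4 arrays, and that spread may be technical.

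All 76 genes had a probe detected on all 4 arrays and were tested. No gene of the mitochondrial ribosome passed limma's adjusted p of 0.05 (0 higher and 0 lower of 76), where 1.89% of all 12136 genes did, 1.18% higher and 0.709% lower after WCE. At an unadjusted p below 0.05 there were 2 members, MRPL40 above and MRPS25 below vehicle, against 19.1% of all genes. Differences are WCE minus vehicle on the normalised log2 scale. They ran from -0.51 for MRPS25 to 0.53 for MRPL47, that is from 0.701 to 1.44 times the vehicle signal. The median was 0.08, beside 0.02 over all genes, and 47 members lay above 0 and 29 below. With median scaling in place of quantile normalization 63 members lay above 0 and the median was 0.20, beside 0.09 over all genes. Without WCE replicate 2 the median was 0.01.

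The 95% intervals of the fit were narrow for most members. A miss of the threshold does not show that a gene kept its level, so these intervals are given as well. They rest on the same spread among 4 arrays as the p-values. If that spread is technical, they leave out the spread between cultures and do not bound the change. Nor do they cover the move of the member median from 0.08 to 0.20 with median scaling. For 74 of the 76 genes the interval lay wholly inside a 2-fold change in either direction (97.4%, beside 90.9% of all genes). For 49 it lay inside a 1.5-fold change (64.5%, beside 47.6% of all genes). The exceptions at 2-fold were MRPL47, with an interval from -0.04 to 1.10, and MRPS33, from -0.01 to 1.06. Standard errors of the members ran from 0.16 to 0.25. Only 3 members (3.95%) lay more than 0.5 from 0 on the log2 scale, namely MRPS25, MRPS33 and MRPL47, beside 12.5% of all genes.

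**Figure D1:**
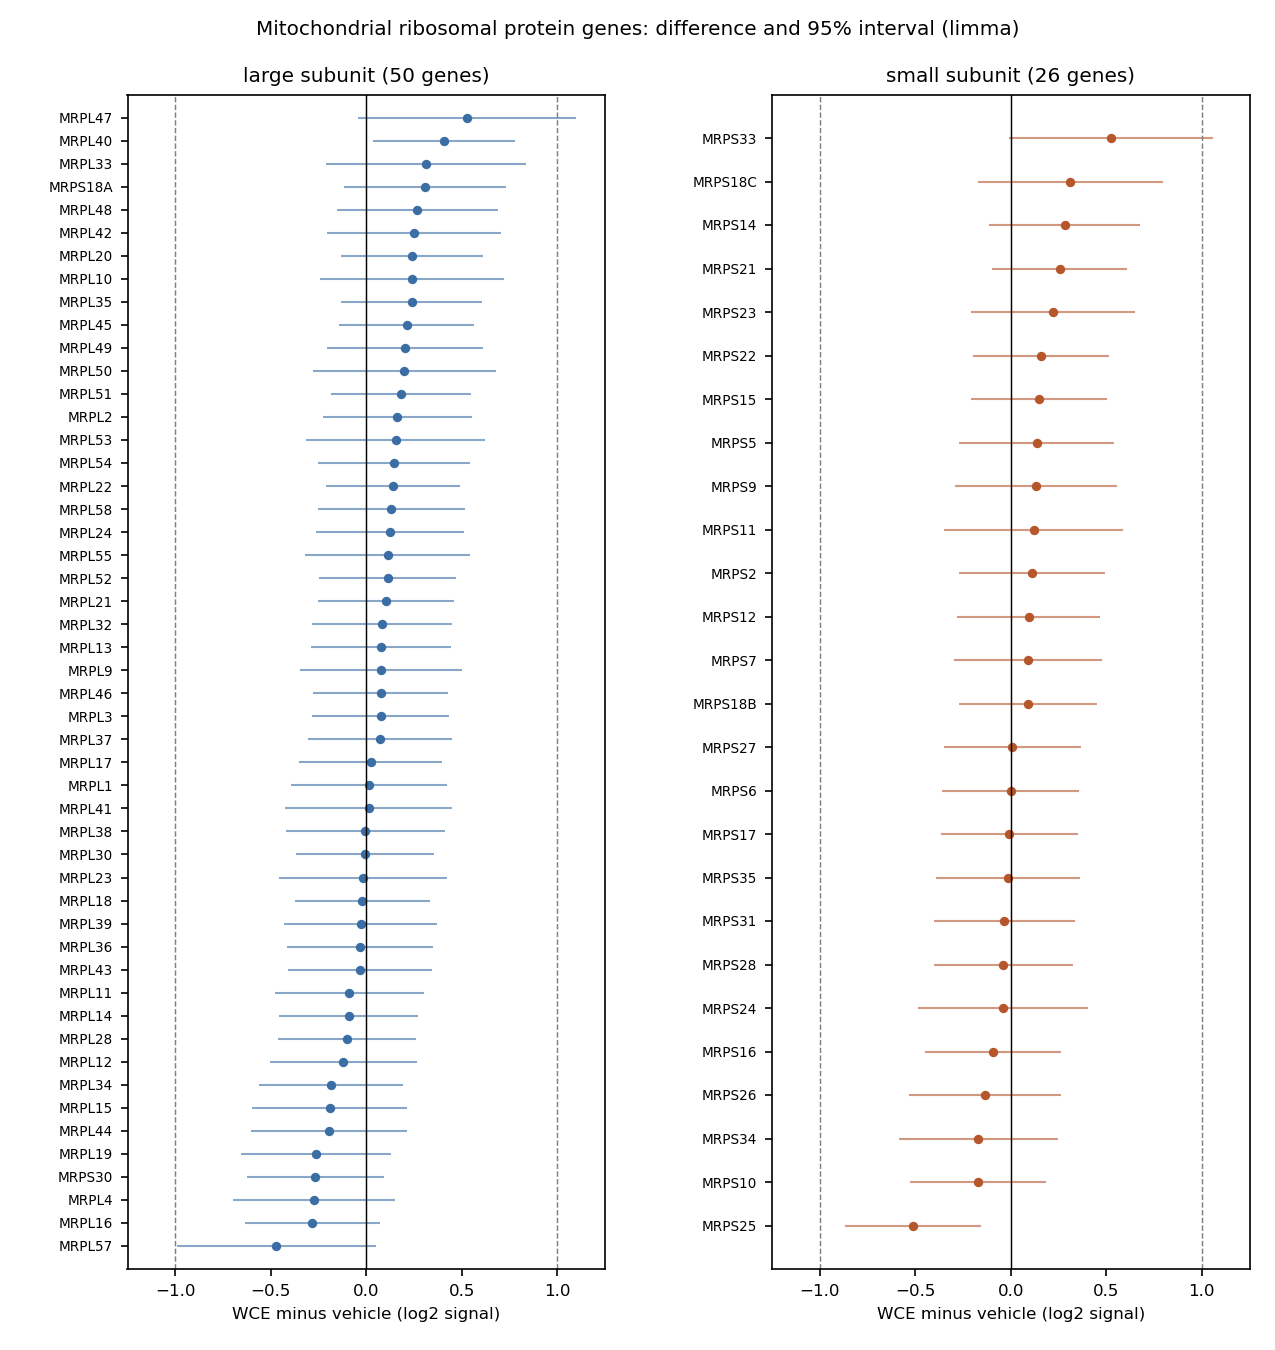
Difference between WCE and vehicle for each of the 76 genes, as normalised log2 signal on the horizontal axis, with the 50 large-subunit genes on the left and the 26 small-subunit genes on the right. Points are limma estimates (n = 2 arrays per group), lines are 95% intervals and dashed lines mark a 2-fold change. Intervals exclude 0 for MRPL40 and MRPS25, and reach past 2-fold for MRPL47 and MRPS33.

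The 2 subunits had close medians, 0.08 over the 50 large-subunit genes and 0.09 over the 26 small-subunit genes. Among large-subunit genes 31 lay above 0 and 19 below, and among small-subunit genes 16 and 10. The 29 large-subunit genes with a bacterial counterpart had a median of 0.02, with a range from -0.28 to 0.53. The 21 classed as mitochondria-specific had 0.13, from -0.47 to 0.41. In the small subunit the order of the medians was the other way round, with 0.10 over 16 genes with a counterpart and -0.0036 over 10 mitochondria-specific ones. MRPS18A and MRPS18B, which are related to a bacterial protein, were put in the mitochondria-specific classes. None of these classes held a gene past the threshold in limma's test, and no difference between classes was tested.

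The small-subunit gene MRPS25, found in mitochondria but not in bacteria, had the smallest p of all members. Its log2 signal was 8.35 and 8.41 on the WCE arrays, against 8.86 and 8.92 on the vehicle arrays. Both WCE arrays lay below both vehicle arrays, and the gap between groups was several times the gap within either. The difference was -0.51 ± 0.16 (SE, limma, adjusted p = 0.135, interval from -0.87 to -0.16). In raw scanner signal the same probe read 422.8 and 373.3 with WCE, against 500.2 and 516.4 with vehicle. The difference stayed between -0.55 and -0.42 in each of the 16 other settings tried. With all arrays in the fit, its adjusted p in limma ran from 0.0798 to 0.213 over those settings. Settings that change only the detection filter, the variance or the block cannot move the difference of a gene with 1 probe.

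MRPL40, a mitochondria-specific protein of the large subunit, was the member with the next smallest p. It had 10.38 and 10.58 on the WCE arrays, against 10.03 and 10.12 on the vehicle arrays. The groups did not overlap, and the difference was 0.41 ± 0.16 (SE, limma, adjusted p = 0.221, interval from 0.04 to 0.78). Over the other settings it lay between 0.31 and 0.53.

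Promoter sequences from RefSeq (GRCh38.p14), 250 bases before to 50 after the annotated start, are shown for MRPS25 and MRPL40, the members with the lowest and highest difference among those whose groups did not overlap. Capitals mark the ETS core described with the other motifs further on, of which MRPL40 has 1 and MRPS25 has 0.
MRPS25 (chr3:15065266-15065565, minus strand): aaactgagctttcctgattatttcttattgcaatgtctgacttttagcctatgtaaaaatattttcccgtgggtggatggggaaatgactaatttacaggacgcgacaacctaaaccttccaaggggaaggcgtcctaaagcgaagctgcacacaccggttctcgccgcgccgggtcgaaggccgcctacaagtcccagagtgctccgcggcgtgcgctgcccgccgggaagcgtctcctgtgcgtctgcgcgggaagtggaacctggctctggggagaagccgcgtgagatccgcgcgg
MRPL40 (chr22:19432295-19432594, plus strand): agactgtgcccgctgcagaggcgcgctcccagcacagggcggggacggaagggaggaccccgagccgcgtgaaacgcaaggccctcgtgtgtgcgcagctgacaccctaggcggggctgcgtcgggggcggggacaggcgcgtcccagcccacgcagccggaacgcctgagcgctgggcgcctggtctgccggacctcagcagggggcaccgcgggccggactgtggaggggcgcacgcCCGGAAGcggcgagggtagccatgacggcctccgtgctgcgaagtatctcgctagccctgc

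The highest differences of all belonged to MRPL47 and MRPS33, which the fixed naming rule did not cover and which were picked after their values were seen. MRPL47, the counterpart of a bacterial protein near the exit of the peptide tunnel, had 9.66 and 9.24 with WCE, against 8.55 and 9.30 with vehicle. MRPS33, a mitochondria-specific small-subunit protein, had 12.29 and 11.73 with WCE, against 11.23 and 11.74 with vehicle. In both genes the lone low value was vehicle replicate 1, the high one was WCE replicate 1, and the second arrays of the 2 groups were nearly level. The differences were 0.53 ± 0.25 and 0.52 ± 0.24 (SE, limma, adjusted p = 0.301 and 0.271), and both pairs of groups overlapped. With single arrays left out they ran from 0.16 to 0.91 for MRPL47 and from 0.25 to 0.80 for MRPS33.

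Replicates of 1 group were over 0.5 apart on the log2 scale for 6 members on the WCE arrays and for 5 on the vehicle arrays. Over all genes the shares were 10.4% and 5.69%. On the WCE arrays these were MRPL57, MRPS11, MRPL53, MRPS33, MRPS24 and MRPL50. On the vehicle arrays they were MRPL47, MRPL33, MRPS18C, MRPS33 and MRPL10, so MRPS33 alone was in both. Taking each gene's mean over the 4 arrays as 0, the median member stood at -0.02 and 0.06 on the WCE arrays, against 0.00 and -0.06 on the vehicle arrays.

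In all, 15 members had both WCE arrays above both vehicle arrays and 8 had both below, against 26.2% and 24.1% of all genes (50.3% for either side). The other 53 overlapped. By limma the adjusted p of the members had a median of 0.748. Of those with WCE above vehicle, the 8 with the highest differences were MRPL40, MRPS18A, MRPS14, MRPL48, MRPS21, MRPL20, MRPL35 and MRPL45.

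MRPS18A is 1 of 3 human relatives of the bacterial protein S18 and, in spite of its name, sits in the large subunit. It had 8.66 and 9.11 with WCE, against 8.55 and 8.60 with vehicle, so that its WCE arrays were farther apart than the groups. Its relative MRPS18C had 11.65 and 11.43 with WCE, against 10.94 and 11.52 with vehicle, where vehicle replicate 1 was low and the groups overlapped. The remaining relative, MRPS18B, had 11.59 and 11.46 with WCE, against 11.48 and 11.39 with vehicle. The differences of the 3 were 0.31 ± 0.19, 0.31 ± 0.21 and 0.09 ± 0.16 (SE), and the interval of each held the estimates of the others.

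Among small-subunit proteins with bacterial counterparts, MRPS14 had 8.18 and 7.93 with WCE, against 7.65 and 7.89 with vehicle. MRPS21 had 13.23 and 13.30 with WCE, against 13.03 and 12.98 with vehicle. In MRPS21 the replicates of each group lay close together and the groups were apart by 0.26 ± 0.16 (SE), yet its second probe went the other way, as given with the other probes. MRPS14 had 0.28 ± 0.18, with WCE replicate 2 and vehicle replicate 2 nearly level.

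Large-subunit genes made up the rest of this set. MRPL48 had 10.66 on both WCE arrays, against 10.17 and 10.61 with vehicle, where vehicle replicate 1 was low. MRPL20 had 11.09 and 11.31 with WCE, against 10.96 on both vehicle arrays. Replicates were close in MRPL45, a protein that faces the inner membrane near the tunnel exit, which had 11.24 and 11.15 with WCE, against 10.97 and 10.99 with vehicle. MRPL35 had 10.32 and 10.12 with WCE, against 9.93 and 10.04 with vehicle. The differences of the 4 lay between 0.21 and 0.27, and each interval included 0.

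Below vehicle on both arrays were MRPS25, MRPL16, MRPL4, MRPS30, MRPL19, MRPL34, MRPS10 and MRPS16. MRPL16, a protein near the peptidyl transferase centre, had 10.49 and 10.58 with WCE, against 10.82 on both vehicle arrays. Its vehicle replicates were level, and the difference was -0.28 ± 0.16 (SE, limma, adjusted p = 0.374). MRPS30, which is also a large-subunit protein in spite of its name, had 10.62 and 10.68 with WCE, against 10.98 and 10.85 with vehicle, a difference of -0.27 ± 0.16 (SE). In both genes the vehicle arrays lay close together and above both WCE arrays.

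In MRPL4 and MRPL19 the WCE replicates lay far apart. MRPL4 had 8.93 and 9.37 with WCE, against 9.47 and 9.38 with vehicle, and MRPL19 had 10.34 and 10.02, against 10.50 and 10.39. MRPL34 had 11.18 and 11.23 with WCE, against 11.52 and 11.26 with vehicle, with vehicle replicate 2 close to the WCE arrays. The small-subunit genes MRPS10 (11.29 and 11.24 with WCE, against 11.39 and 11.48 with vehicle) and MRPS16 (10.30 and 10.21, against 10.31 and 10.39) had the smallest differences of this set, -0.17 ± 0.16 and -0.09 ± 0.16 (SE). With median scaling MRPS16 had 0.03, on the other side of 0. Recessive mutations of MRPS16 in people cause a combined respiratory chain deficiency.

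**Figure D2:**
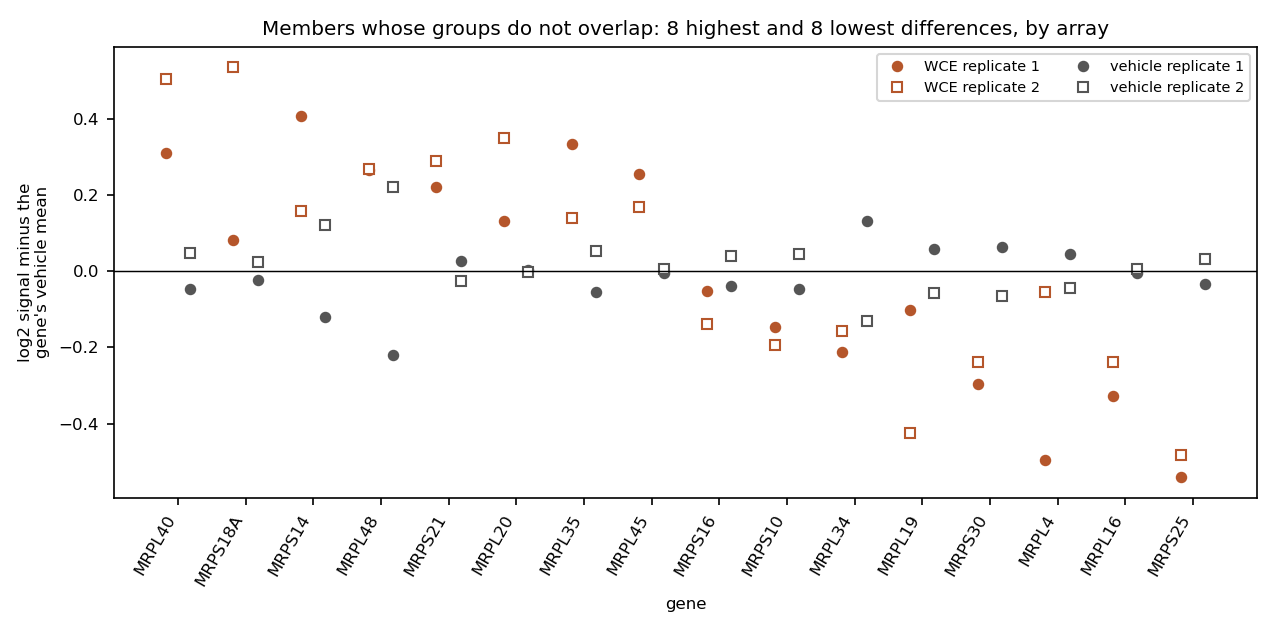
Normalised log2 signal on each array minus the gene's mean over the vehicle arrays, for the members whose groups do not overlap, 8 with the highest and 8 with the lowest differences from left to right. WCE arrays (orange) stand left of vehicle arrays (grey), filled circles are replicate 1 and open squares replicate 2. MRPL40 and MRPS25 have the widest gaps between groups at either end, and in MRPS18A, MRPL4 and MRPL19 the WCE arrays are far apart.

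Several proteins with known roles in the working ribosome were read whatever their values. MRPL12, which forms the mobile stalk that recruits translation factors, had 10.42 and 10.70 with WCE, against 10.71 and 10.64 with vehicle. MRPL11, at the base of the stalk, had 11.53 and 11.34 with WCE, against 11.66 and 11.39 with vehicle. Both overlapped between groups, with differences of -0.12 ± 0.17 and -0.09 ± 0.17 (SE). MRPS12, the counterpart of the bacterial decoding-centre protein S12, had 12.67 and 12.89 with WCE, against 12.74 and 12.64 with vehicle (0.09 ± 0.17, SE). MRPL3, a core protein of the large subunit, had 12.36 and 12.23 with WCE, against 12.25 and 12.20 with vehicle (0.08 ± 0.16, SE).

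MRPS2, whose bacterial counterpart joins the small subunit late in its assembly, had 9.67 and 9.95 with WCE, against 9.73 and 9.67 with vehicle. For MRPS22, mutated in some families with mitochondrial disease, the values were 11.57 and 11.58 with WCE, against 11.47 and 11.37 with vehicle, and the groups did not overlap. MRPS34, needed for a stable small subunit, had 9.55 and 9.83 with WCE, against 10.01 and 9.70 with vehicle. Their differences were 0.11 ± 0.17, 0.16 ± 0.16 and -0.17 ± 0.18 (SE). MRPL44, which carries a ribonuclease III fold, had 9.46 and 9.59 with WCE, against 9.91 and 9.54 with vehicle, where vehicle replicate 1 was high (-0.20 ± 0.18, SE). MRPL41 had 12.25 and 12.72 with WCE, against 12.55 and 12.39 with vehicle, and the WCE arrays lay on either side of the vehicle arrays (0.01 ± 0.19, SE). The interval of each of these genes included 0. The gene once called MRPS36 is KGD4 in the annotation used here, a part of the 2-oxoglutarate dehydrogenase complex and no member, and it had 0.11 ± 0.17 (SE).

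Of the 76 genes, 49 had 1 probe and 27 had several. Of the 110 probes 104 were kept, and 6 were too dim, 4 of them detected on no array. Fitted probe by probe, 0 of the 104 passed limma's adjusted p of 0.05, against 0.846% of all 21996 kept probes. At an unadjusted p below 0.05 there were 5, against 17.9% of all kept probes. Those of MRPL40, MRPL11 and MRPS33 lay above vehicle and those of MRPS25 and MRPS12 below. The 23 genes with several kept probes allow a check of 1 probe against another. In 12 all probes lay on the same side of 0 and in 11 they did not, and the median gap between a gene's highest and lowest probe was 0.11.

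Of the 2 genes with the highest differences, MRPS33 had probes that gave like values. Its second probe, dimmer by far, had 8.76 and 8.64 with WCE, against 7.88 and 8.42 with vehicle, and here the groups did not overlap. The probes gave 0.54 and 0.52, and vehicle replicate 1 was the low array in both. MRPL33, of the large subunit, had 0.31 and 0.30 on its probes, and the 3 probes of MRPL35 gave values from 0.18 to 0.26. For MRPL47 the second probe had 8.65 and 8.30 with WCE, against 8.13 and 8.25 with vehicle, a difference of 0.29 beside 0.53 for the first.

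Probes of the same gene were over 0.5 apart for MRPS12, MRPL57 and MRPL11. MRPS12 had a dim probe with 6.60 and 6.68 with WCE, against 7.32 and 6.88 with vehicle, a difference of -0.46, while its brighter probes had 0.09 and 0.02. MRPL57, a mitochondria-specific large-subunit protein, had 9.71 and 9.07 with WCE, against 10.03 and 9.70 with vehicle on its brighter probe. The groups overlapped, since WCE replicate 1 reached vehicle replicate 2, and the difference was -0.47 ± 0.23 (SE). The dimmer MRPL57 probe had 6.71 and 6.92 with WCE, against 6.73 and 6.77 with vehicle, a difference of 0.07. MRPL57 was the single member to pass limma in any setting tried. It did so without WCE replicate 1 (adjusted p = 0.0484, difference -0.80), and with the other arrays left out singly its difference came as close to 0 as -0.15.

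MRPL11 had a dim probe with 6.74 and 6.70 with WCE, against 6.34 and 6.24 with vehicle, a difference of 0.43 with groups that did not overlap. Its 2 brighter probes had 0.11 and -0.09. MRPS21 had a second probe with 11.13 and 11.11 with WCE, against 11.22 and 11.33 with vehicle. That is a difference of -0.16 beside 0.26 on the first, with groups that did not overlap on either probe and opposite signs. The second probe of MRPL4 had 0.09 beside -0.28, and that of MRPL42 -0.09 beside 0.25. MRPL42 itself had 10.51 and 10.14 with WCE, against 9.87 and 10.27 with vehicle. Which transcripts each probe reads was not analysed here.

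The other genes with probes of opposite sign were close to 0 throughout. MRPS11 had 10.58 and 11.17 with WCE, against 10.74 and 10.77 with vehicle, the WCE arrays being far apart, and its probes gave 0.12 and -0.09. MRPL43 had 11.31 and 11.29 with WCE, against 11.20 and 11.46 with vehicle, and its probes lay between -0.14 and 0.03. MRPL18 had 11.67 and 11.63 with WCE, against 11.71 and 11.63 with vehicle. MRPL30 had 8.14 and 8.03 with WCE, against 8.15 and 8.03 with vehicle, and MRPS27 had 11.08 and 11.19, against 11.08 and 11.17. In these last 3 genes both groups spanned the same values, and their probes stayed between -0.06 and 0.10.

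**Figure D3:**
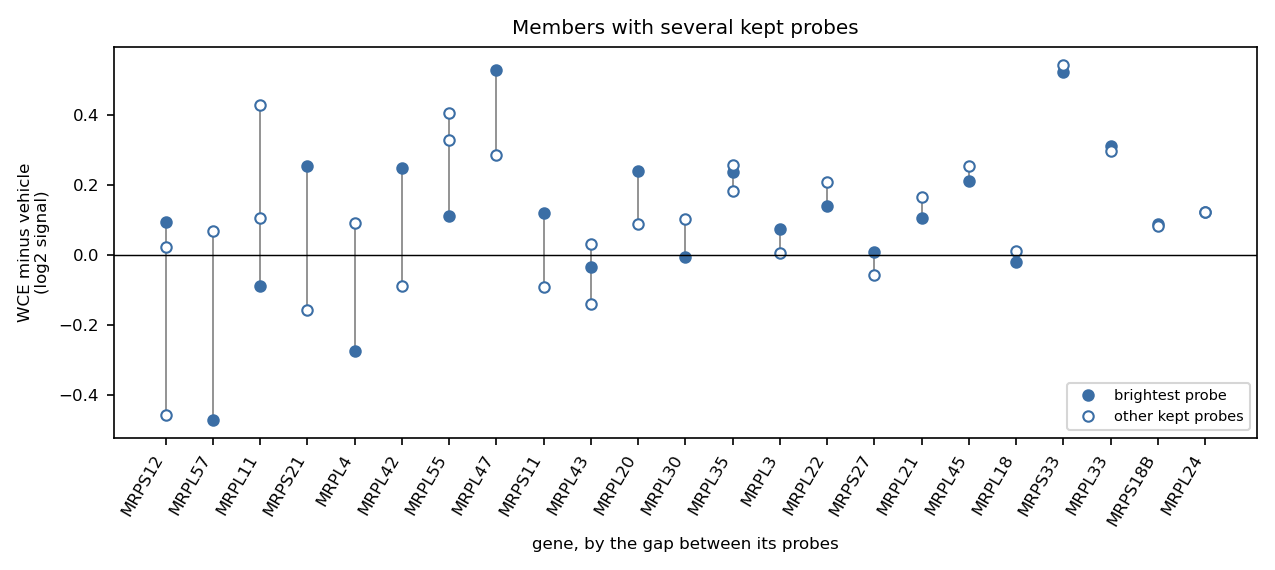
Difference between WCE and vehicle (normalised log2 signal) for each kept probe of the 23 members with several, ordered by the gap between probes. Filled points are the brightest probe of a gene, which stood for it in the fit by gene, and open points the others. The widest gaps are those of MRPS12, MRPL57 and MRPL11, at 0.55, 0.54 and 0.52, and both probes of MRPS33 lie above 0.5.

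RefSeq promoter windows were at hand for 68 of the 76 genes, and 7 short motifs were searched for on both strands, each on its own, with overlaps allowed. The YY1 core AAGATGGCG, part of the site of the zinc-finger factor YY1, was found in 13 of the 68 (19.1%), beside 3.97% of 9542 tested genes. The ETS core CCGGAAG, which GABP and other ETS factors recognise, was found in 28 (41.2%), beside 19.1%. For the core GCGCATGC of NRF1, a regulator of nuclear genes for mitochondria, the count was 6 (8.82%), beside 5.70%. Genes of the cytosolic ribosome held the YY1 core in 9.52% and the ETS core in 34.9% of 63 windows. The AHR core GCGTG was in 55.9% of members and 51.1% of tested genes, the E-box CACGTG in 8.82% and 10.4%, the CCAAT box CCAAT in 27.9% and 37.4%, and the GC box GGGCGG in 61.8% and 69.7%. Of the 68 windows, 30 held none of the YY1, ETS and NRF1 cores. A match is a description of letters and does not show that a factor binds.

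There were 14 YY1 cores in the 13 promoters, 12 of them read along the gene, and 10 began at or after the annotated start. They are shown for 6 genes that are described here, as examples of the motif whose share among members was the largest multiple of its share among tested genes, with 10 bases on either side and the core in capitals, read along the gene (RefSeq, GRCh38.p14).
MRPS30 (chr5:44808950-44808978, plus strand): atcgcgggcaAAGATGGCGgcggccaggt
MRPS10 (chr6:42217834-42217862, minus strand): cgggaccggcAAGATGGCGgcgcggacag
MRPS18A (chr6:43687764-43687792, minus strand): taggtttttgAAGATGGCGgccctcaagg
MRPS18B (chr6:30617853-30617881, plus strand): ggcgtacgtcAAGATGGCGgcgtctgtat
MRPL42 (chr12:93467512-93467540, plus strand): ggattgaaacAAGATGGCGggttcgtggt
MRPL46 (chr15:88467362-88467390, minus strand): gggagaacgaAAGATGGCGgcgcccgtaa

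Members with and without these motifs can be set side by side. The median difference was 0.08 over the 13 genes with a YY1 core and 0.08 over the 55 without. It was 0.14 over the 28 genes with an ETS core and 0.02 over the 40 without. The difference between these medians was not tested.

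A head-to-head neighbour was common. In 17 of the 68 genes (25%), beside 13.8% of tested genes, another protein-coding gene started on the opposite strand within 1000 bases upstream. All 17 partners were tested, and 0 passed limma's adjusted p of 0.05, against 1.89% of all genes. MRPL46 and MRPS11, each the other's partner, are both counted. The pairs described were picked after their values were seen, and some had like values. MRPS18C and its partner HELQ, a DNA helicase 175 bases away, had 0.31 and 0.54 ± 0.17 (SE). MRPL57 and SKA3, a kinetochore protein, had -0.47 and -0.29 ± 0.16 (SE). MRPL49 and FAU, a precursor of a cytosolic ribosomal protein, both had 0.20.

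The least alike of the pairs described were MRPL51 and NCAPD2. MRPL51 had 0.18, while NCAPD2, a condensin subunit 840 bases away, had -0.55 ± 0.16 (SE, limma, adjusted p = 0.12). MRPS12 had 0.09 and the mitochondrial seryl-tRNA synthetase gene SARS2, 181 bases away, had 0.00 ± 0.16 (SE). The starts of MRPL46 and MRPS11 were 320 bases apart, and their differences were 0.08 and 0.12.

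The other genes of mitochondrial translation were read by lists. Mitoribosomal proteins with other symbols (4 of 5 tested) had a median of 0.05. Among them DAP3, a GTP-binding protein of the small subunit, had 10.16 and 10.26 with WCE, against 9.87 and 10.03 with vehicle (0.26 ± 0.16, SE). GADD45GIP1, a protein of the large subunit, had -0.11 ± 0.17 and CHCHD1, of the small subunit, 0.06 ± 0.16 (SE). Translation factors (14 tested) had a median of -0.04, and the ribosome recycling factor MRRF, HEMK1, which methylates release factors, and the initiation factor MTIF2 had 0.30 ± 0.16, 0.28 ± 0.20 and -0.26 ± 0.21 (SE).

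Assembly and rRNA modification factors (25 tested) had a median of -0.06. The rRNA methyltransferase MRM1 had 5.75 and 6.32 with WCE, against 5.47 and 5.64 with vehicle (0.48 ± 0.21, SE). Its difference was 0.76 without WCE replicate 1, where it passed (limma, adjusted p = 0.0429), 0.20 without WCE replicate 2 and 0.26 without background correction. GTPBP10, a GTPase of large-subunit assembly, and MPV17L2 had -0.35 ± 0.20 and 0.22 ± 0.16 (SE). Over the other settings with all arrays GTPBP10 came as close to 0 as -0.09. Mitochondrial aminoacyl-tRNA synthetases (19 tested) had a median of -0.04. GATC, a subunit of the enzyme that makes glutaminyl-tRNA, had -0.39 ± 0.17, the prolyl enzyme PARS2 0.32 ± 0.16 and the tyrosyl enzyme YARS2 -0.22 ± 0.16 (SE).

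Genes that express mitochondrial DNA (20 tested) had a median of 0.04. Their 3 smallest p-values were those of PNPT1, a ribonuclease of mitochondrial RNA, the poly(A) polymerase MTPAP and the RNA-processing protein FASTKD5, with -0.57 ± 0.26, -0.40 ± 0.19 and -0.33 ± 0.16 (SE). Over the other settings with all arrays MTPAP came as close to 0 as -0.15. For PNPT1 the values were 13.63 and 12.82 with WCE, against 13.95 and 13.63 with vehicle. In PNPT1, WCE replicate 1 thus stood level with vehicle replicate 2. Its difference was -0.98 without WCE replicate 1, where it passed (limma, adjusted p = 0.0206), and -0.16 without WCE replicate 2. With median scaling the medians of the translation factors, the assembly factors and the synthetases turned positive, at 0.08, 0.07 and 0.05. Translation factors also turned positive without vehicle replicate 1 (0.03), and synthetases without vehicle replicate 2 (0.05). Genes that express mitochondrial DNA turned negative without WCE replicate 2 (-0.02). No gene of these 5 lists passed limma's test with all arrays. At an unadjusted p below 0.05 there were 2, MRM1 and GATC, against 19.1% of all genes.

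Regulators of mitochondrial biogenesis (9 tested) had a median of -0.15 and wider differences. PPARGC1B, a coactivator that raises mitochondrial gene expression, had 5.78 and 5.16 with WCE, against 6.41 and 6.33 with vehicle. It was detected on both vehicle arrays but on 1 of the 2 WCE arrays, so it was tested only through the group where it is high and its size of change is uncertain. The fitted difference was -0.90 ± 0.21 (SE, limma, adjusted p = 0.0721). It passed without WCE replicate 1 (adjusted p = 0.00551, difference -1.19) and came to -0.60 without WCE replicate 2 and to -0.48 without background correction. GABPB1, a subunit of GABP, had 8.89 and 8.45 with WCE, against 9.17 and 9.13 with vehicle (-0.49 ± 0.19, SE), and its difference ran from -0.70 to -0.26 with single arrays left out. MYC had 11.33 and 11.43 with WCE, against 11.75 and 11.77 with vehicle (-0.38 ± 0.16, SE). Of the other factors of the motifs described, YY1 had 11.00 and 10.47 with WCE, against 11.27 and 11.14 with vehicle (-0.47 ± 0.20, SE). NRF1 had 5.13 and 6.04 with WCE, against 4.89 and 5.14 with vehicle, where it was detected on 1 of the 2 arrays (0.57 ± 0.27, SE). NRF1 was thus also tested only through the group where it is high. GABPA, the partner of GABPB1, had 7.73 and 7.09 with WCE, against 6.79 and 7.71 with vehicle (0.16 ± 0.31, SE). In NRF1 and GABPA the groups overlapped. The coactivator PPARGC1A had 5.28 and 5.23 with WCE, against 4.82 and 4.95 with vehicle, where it was detected on neither array and its level is only bounded from above. YY1, NRF1, GABPA and PPARGC1A were named after their values were seen. None of the 9 passed limma. At an unadjusted p below 0.05 there were 5, against 19.1% of all genes. These were PPARGC1B, GABPB1, MYC and YY1 below vehicle and PPARGC1A above. PPARGC1A and PPARGC1B were tested only through the group where they are high. The list was chosen with earlier results of these data known, so this count is a description and no test.

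**Figure D4:**
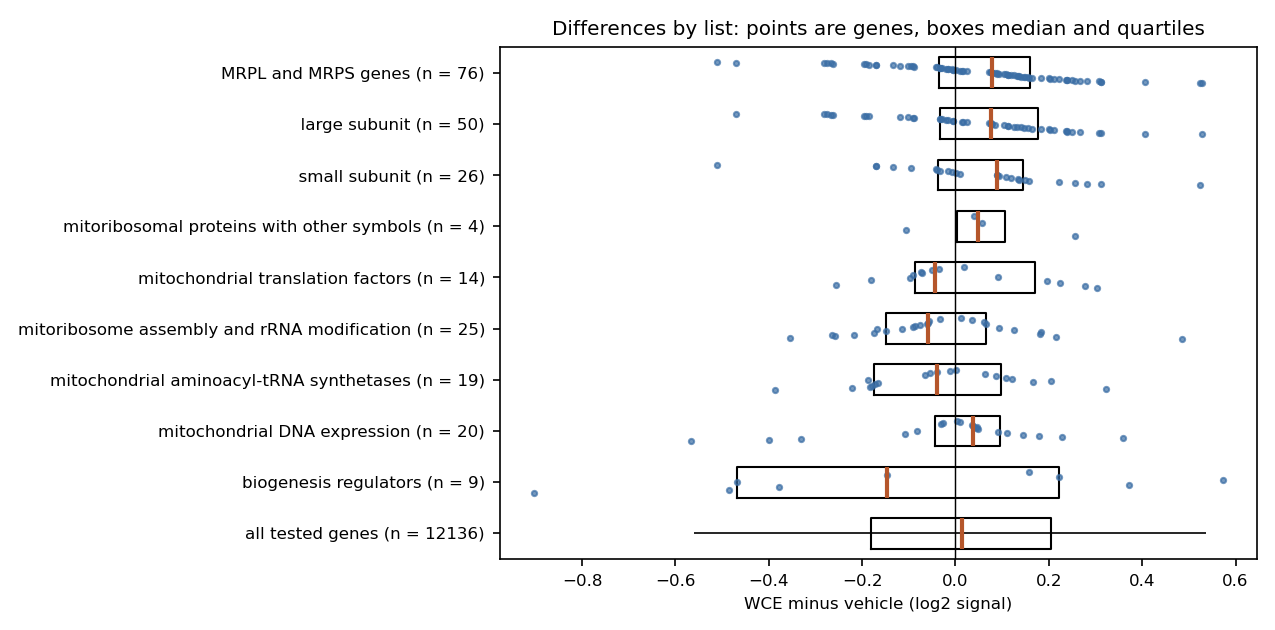
Difference between WCE and vehicle (normalised log2 signal) by list, with 1 point per gene, boxes for the quartiles and a bar for the median. For all tested genes the line spans the central 90% in place of points. The 76 MRPL and MRPS genes centre on 0.08 with quartiles of -0.03 and 0.16, a narrower box than that of all genes (-0.18 and 0.20), and PPARGC1B is the far left point among the biogenesis regulators.

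The lists most like the mitochondrial ribosome had like medians and 0 calls. Cytosolic ribosomal proteins (74 tested) had a median of 0.06, with 3 above and 0 below vehicle at an unadjusted p below 0.05. Nuclear subunits of the respiratory chain and ATP synthase (76 tested) had 0.05, with 3 above and 1 below. Over all genes 19.1% had an unadjusted p below 0.05, and 1.89% passed limma's adjusted p of 0.05. Intervals inside a 1.5-fold change were found for 73.0% and 76.3% of these genes, beside 64.5% of the mitochondrial ribosomal proteins.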

How the data were processed

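Per the file headers, the authors deposited a linear intensity and a detection p-value for each probe and array. From their values these intensities are neither background-subtracted nor normalized. The authors also deposited processed log2 values, and the sources used here do not name the method. Their ranks matched the raw signals of the same array, they lay within 0.136 of quantile-normalized log2 signals, their column medians were 6.40, and genes were not centred. The labels' protocols name a column kit for RNA and biotinylated cRNA.

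Raw intensities were corrected with normexp (offset 16, with the background inferred through detection p-values), put on the log2 scale and quantile-normalized in limma 3.58.1 under R 4.3.3. Probes detected (p under 0.05) on the 2 WCE arrays or on the 2 vehicle arrays were kept, 21996 of 47320. Each of 12136 genes was read from its brightest such probe. The contrast of WCE with vehicle used lmFit and eBayes (2 residual and 7.12 prior degrees of freedom), with Benjamini-Hochberg adjustment over all genes, or all kept probes. With 2 arrays a group an exact two-sided permutation p cannot go below 0.333, so single genes rest on the variance pooled by limma. The number of arrays limits the precision. The steps were tested on simulated data.

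The platform annotation gave 1 symbol to 30112 probes and several to 8, which were left unnamed. Symbols were checked by gene number against RefSeq GRCh38.p14, and 0 changed. MRPL27, AURKAIP1, GFM2 and NGRN, which are on the lists, were not analysed here, since no probe carried their names. The members and lists were chosen with earlier results of these data known. Values on each array are given for members past the threshold and for members whose probes disagreed in sign or by over 0.5. They are also given for the 8 highest and 8 lowest differences among members whose groups did not overlap. The same holds for the genes fixed by role, except KGD4, for which only the difference is given. With KGD4 the genes fixed by role were 16. Of the other lists, members past the threshold or else the 3 with the smallest p are named, and YY1 windows were chosen after the motif search. Same-numbered arrays deviated from their group means with r = -0.16 across genes. This correlation does not settle whether the numbers pair the arrays, and the main fit used no pairing.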

Additional observations from a re-analysis of the deposited data

How the results depend on the processing

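The count of mitochondrial ribosomal protein genes past the threshold was 0 as reported and in 15 of the 16 other settings. It was between 0 and 1 with 1 array left out, the 1 being MRPL57, lower without WCE replicate 1. The count over all genes was 229, and it was 75, 77, 860 and 123 without vehicle replicate 1, vehicle replicate 2, WCE replicate 1 and WCE replicate 2. It was 388 without background correction, 368 with an offset of 50, 130 with median scaling, 402 with the authors' processed values, 53 without a detection filter and 457 with a trended robust variance. With the replicate block it was 745, with 0 members called and a member median of 0.08, and PPARGC1B passed (adjusted p = 0.00269, limma). The crossed pairing, chosen after seeing the data, gave 167 genes and 0 members. Quantile normalization on the linear scale, which had been run first and was replaced by the log2 form after its counts were seen, gave 222 genes and 0 members. The member median of 0.08 was 0.20 with median scaling and ran from 0.01 to 0.12 with 1 array left out, the lowest being 0.0077 and the highest 0.1171. The cause was not tested.

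Of the 76 members, 39 kept their sign in all 16 settings. Settings that change only the variance or the block cannot move a difference, so they do not test its sign. With median scaling 63 members lay above 0, against 47 as reported. The sign changes that follow are those of the genes named by the rule, and not of all members. With median scaling MRPL12 (0.012), MRPL11 (0.0206), MRPS16 (0.0341), MRPL30 (0.076), MRPL43 (0.0799) and MRPL18 (0.0978) turned positive. With the mean of a gene's probes MRPL11 (0.1497) and MRPL30 (0.0488) turned positive, and MRPS12 (-0.1138) and MRPS27 (-0.024) negative. MRPS27 also turned with cyclic loess (-7e-04). With 1 array left out, signs turned for MRPL11 (-0.2205 to 0.0426), MRPL12 (-0.256 to 0.0203), MRPL18 (-0.0557 to 0.0161), MRPL30 (-0.0622 to 0.053), MRPL41 (-0.2166 to 0.2511), MRPL43 (-0.1638 to 0.0983), MRPS2 (-0.0302 to 0.2506), MRPS11 (-0.1676 to 0.4155), MRPS12 (-0.0153 to 0.1969), MRPS27 (-0.0481 to 0.0648), CHCHD1 (-0.0454 to 0.1608) and GADD45GIP1 (-0.2214 to 0.0105). None of these 13 genes passed limma in any setting. With an array left out, the lone one of its group is taken to have the spread of the other group. With 2 arrays a group, the number of arrays limits what can be seen.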
